A study of Homo sapiens with 15 samples.

Results

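The 9 keratin genes of the bronchial epithelium, KRT5, KRT7, KRT8, KRT80, KRT14, KRT15, KRT17, KRT18 and KRT19, were examined in BEAS-2B cells exposed to fine particulate matter (PM2.5). They were chosen by gene symbol, with earlier results of these data known, and make up 9 of the 58219 genes in the table of counts. All 9 passed the filter on low counts, as did 17599 genes in all. BEAS-2B is an immortalized line of human bronchial epithelial cells, here grown submerged on collagen-coated plates in a serum-free growth medium, so the data describe 1 cell line and not a differentiated airway. The 15 libraries fall into 5 conditions of 3 independent experiments each. At 24 h these were vehicle control, 1 µg/cm2 and 30 µg/cm2 of PM2.5 from Beijing, extracted from filters into water. In the repeated protocol they were vehicle control and 1 µg/cm2 given fresh each day with washing between exposures, and cells were collected on day 7. Cells of the repeated protocol were plated at a lower density than those of the 24-h protocol. The methods describe 6 daily exposures and the sample labels 7.

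Keratins are the intermediate filament proteins of epithelial cells. Each filament is built from pairs of a type II (basic) and a type I (acidic) chain, and chains without a partner are broken down. KRT5 pairs with KRT14 in basal cells, where KRT15 is a further type I partner, and KRT8 pairs with KRT18 in simple epithelium, where KRT7 and KRT19 are the other main chains. KRT17 is a type I keratin induced in stressed or wounded epithelium, and KRT80 is a type II keratin of desmosome-rich epithelial borders. In the airway, KRT5 marks the basal stem cells from which secretory and ciliated cells arise.

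On GRCh38, the type II genes KRT80 (chr12:52168996-52192000, minus strand), KRT7 (chr12:52232520-52252186, plus strand), KRT5 (chr12:52514575-52520687, minus strand) and KRT8 (chr12:52897187-52949954, minus strand) lie in 1 cluster on chromosome 12. KRT18 (chr12:52948871-52952901, plus strand) is the type I gene at the edge of that cluster. The other type I genes, KRT15 (chr17:41513743-41522529), KRT19 (chr17:41523617-41528308), KRT14 (chr17:41582279-41586921) and KRT17 (chr17:41619437-41624842), all on the minus strand, lie on chromosome 17. The start of KRT5, which of the 9 genes had the largest fold-change after a single high dose, is shown for reference beside that result. RefSeq (GRCh38.p14) promoter entries matched 2 of the 9 genes, KRT5 and KRT8. The KRT8 entry does not lie at the start of the main KRT8 transcript and is not printed. The KRT5 sequence runs 5′ to 3′ on the minus strand at chr12:52520345-52520644, from 250 bases before to 50 bases after the start. Capitals mark the 1 match to TGACNNNGC, the core of the antioxidant response element, which lies on the opposite strand at -236.
KRT5 promoter: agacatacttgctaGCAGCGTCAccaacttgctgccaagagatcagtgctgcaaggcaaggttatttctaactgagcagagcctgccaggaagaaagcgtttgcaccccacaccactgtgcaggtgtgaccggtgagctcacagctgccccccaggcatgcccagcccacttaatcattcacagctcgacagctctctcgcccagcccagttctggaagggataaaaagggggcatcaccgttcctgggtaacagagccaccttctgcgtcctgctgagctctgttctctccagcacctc
Both strands were searched, and no other motif overlapped this match. The same letters occur in 13.3% of the 35116 promoters of that length. A further 4 patterns were not found in the KRT5 window, namely AP-1 (TGANTCA, in 7.71% of promoters), the xenobiotic response element core (GCGTG, in 36.5%), the GC box (GGGCGG, in 45.0%) and the TATA box (TATAAA, in 11.5%).

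Each library held 21460981 to 34724765 counts on genes, with a median of 29243177. Levels are given as CPM, the count of a gene relative to the total of its library, after scaling by the trimmed mean of M values (TMM). In the text, a gene is called when edgeR's quasi-likelihood test gave it a p-value below 0.05, adjusted by Benjamini-Hochberg over all 17599 genes, and its log2 fold-change was 0.6 or more in size. Libraries of 24-h experiment 2 stood apart: replicate libraries compared by their counts had a chi-square of 68.6 to 161 per degree of freedom where a pair included experiment 2 and 4.11 to 16.4 between experiments 1 and 3. Experiment 3 of the daily exposure also stood apart, at 17.9 to 23.1 against 4.04 to 4.74 for the other pairs of the repeated protocol. No libraries were alike within sampling noise. Of the markers fixed for the cell type, all 8 basal and all 6 general epithelial genes were measured, with summed levels in the controls of 1250 to 1780 CPM for the basal genes. The basal list includes KRT5, KRT14 and KRT15 and the general list KRT8 and KRT18, so this check is not independent of the keratins studied. KRT5 alone was at 714 to 1070 CPM in the controls. At 30 µg/cm2 the basal sum was 478 to 519 CPM. The 5 secretory markers together never exceeded 0.479 CPM, and SCGB1A1, the defining club cell gene, had no count in the 24-h controls. Ciliated markers summed to 2.59 to 8.23 CPM and endothelial markers to at most 0.345 CPM. The 5 fibroblast or mesenchymal markers summed to 44.4 to 91 CPM. VIM, the filament gene of mesenchymal cells, is not on that list. It was at 406, 668 and 523 CPM in the 24-h controls and at 246, 225 and 231 CPM in the controls of the repeated protocol. Leukocyte markers summed to 2.37 to 23.4 CPM, from at most 2 genes and mainly CD14, and PTPRC, the defining leukocyte gene, was at or near 0.

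In control cells at 24 h, KRT7 was the most abundant of the 9 keratins per length of exon. Its level was 396 ± 101 CPM per kb (SD, n = 3), above KRT5 at 174 ± 7.15 CPM per kb, and the ranges of the 2 genes did not overlap. KRT18 (132 ± 15.4 CPM per kb), KRT19 (131 ± 51.3 CPM per kb), KRT17 (108 ± 45.8 CPM per kb) and KRT8 (93.2 ± 20.2 CPM per kb) followed, each overlapping its neighbour in the order. KRT80 (25.5 ± 11 CPM per kb), KRT14 (4.79 ± 0.427 CPM per kb) and KRT15 (0.627 ± 0.489 CPM per kb) were lower and separate from each other. KRT5 was thus measured at a high level while KRT14, the usual partner in basal cells, was low. Type II keratins made up 689 ± 94.5 CPM per kb and type I keratins 376 ± 94 CPM per kb, a ratio of 1.93 ± 0.628. That ratio was 2.4, 1.22 and 2.18 in experiments 1, 2 and 3. Order and ratio rest on the deposited exon length, which joins all annotated exons and exceeds the main transcript unevenly. KRT8 was divided by 6881 bases, although its main transcript has 1784 bases. In CPM without a length, KRT8 (641 ± 139 CPM) was above KRT18 (423 ± 49.5 CPM), KRT19 (307 ± 120 CPM) and KRT17 (274 ± 116 CPM).

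**Figure D1:**
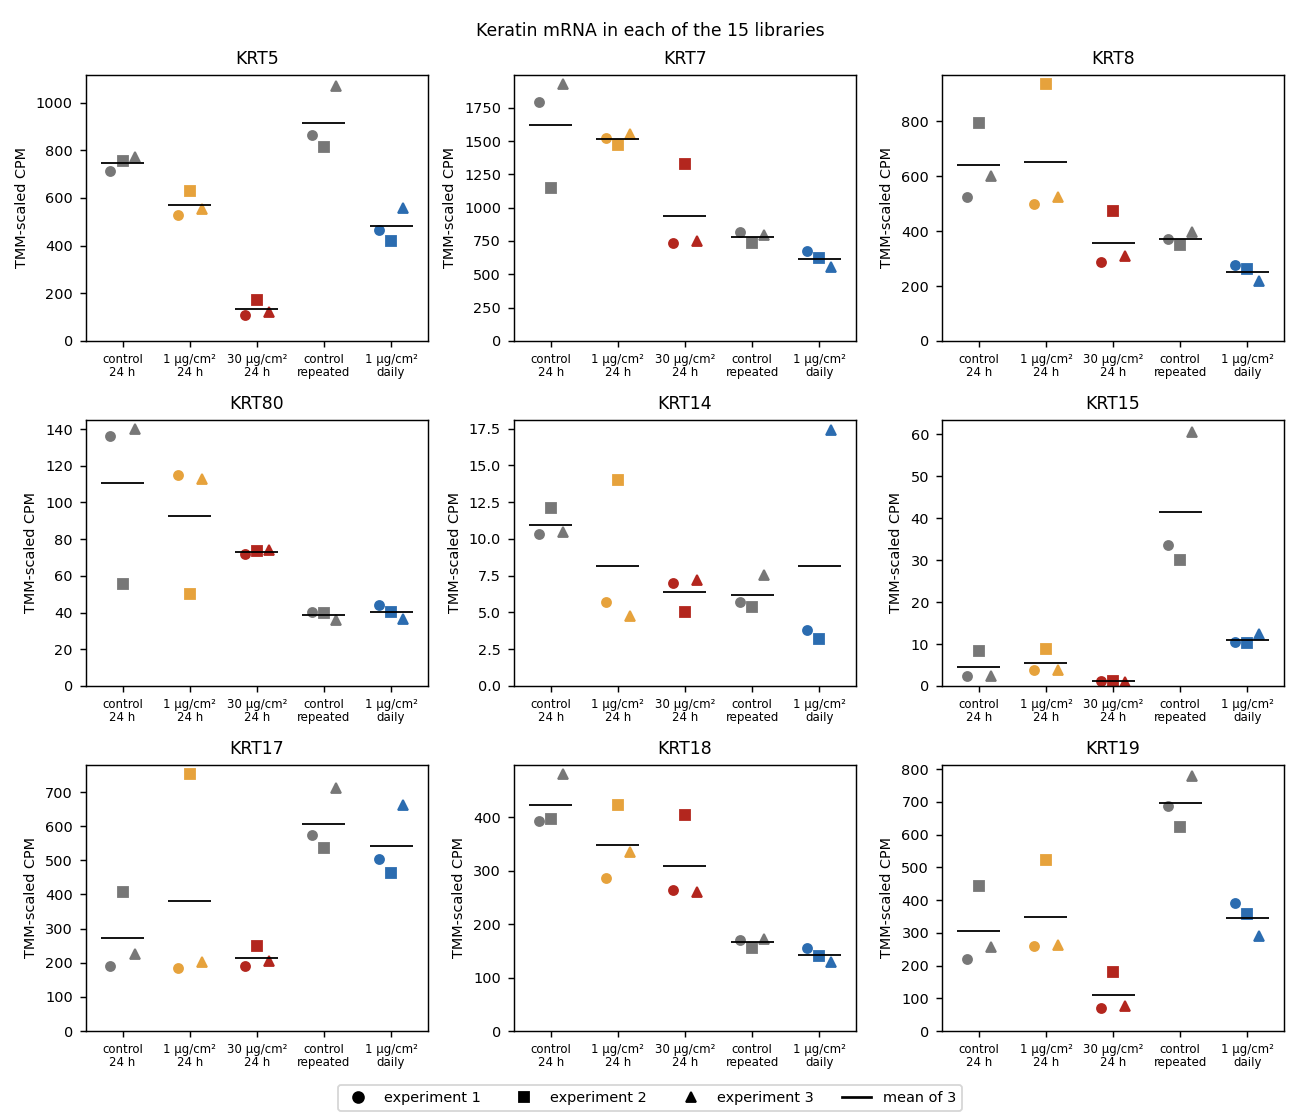
Level of each keratin in TMM-scaled CPM (vertical axes, from 0) in the 5 conditions (horizontal axes). Each point is 1 library, its shape gives the experiment, and the bar is the mean of 3. The KRT5 libraries at 30 µg/cm2 (110 to 173 CPM) lie below all other KRT5 libraries, and KRT15 reaches 30.0 to 60.5 CPM only in the control of the repeated protocol.

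The experiments of the 24-h protocol differed in their keratins before any exposure. In the control of experiment 2, KRT15 was 3.46-fold, KRT17 1.96-fold, KRT19 1.86-fold and KRT8 1.41-fold the mean of experiments 1 and 3. KRT80 was 0.403-fold and KRT7 0.62-fold that mean, while KRT5 was 1.01-fold. Values for each experiment are therefore given beside the pooled tests.

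A single exposure to 30 µg/cm2 lowered 5 of the 9 keratins after 24 h and raised none. KRT5, KRT15, KRT19, KRT8 and KRT7 were called lower, where 4.24% of the genes tested were called lower. The median log2 fold-change of the 9 genes was -0.79, against 0.03 over all genes. The same 5 were called when experiments entered the fit as a replicate block, where 7.87% of genes were called lower. Every one of the 9 treated-control pairs of libraries was lower for 5 keratins, KRT5, KRT8, KRT14, KRT15 and KRT19, a pattern that 11.1% of genes showed.

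Of the 9 genes KRT5 fell most. Its level was 714, 755 and 774 CPM in the 3 controls and 110, 173 and 123 CPM after 30 µg/cm2. Every treated library was well below every control. Means were 748 ± 30.7 and 136 ± 33.3 CPM (SD, n = 3). KRT5 was thus 5.5-fold lower, with a log2 fold-change of -2.46 (SE 0.183, edgeR adjusted p = 7.57e-06). Within experiments 1, 2 and 3 the log2 difference was -2.69, -2.12 and -2.65, so the experiment that stood apart changed in the same way. KRT5 was called in all alternatives, with an adjusted p of at most 0.00477.

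The other basal keratins were much less abundant. KRT15 was at 2.47, 8.43 and 2.41 CPM in the controls and at 1.12, 1.21 and 0.958 CPM after 30 µg/cm2. All treated libraries were lower, and the control of experiment 2 was the highest. The log2 fold-change was -1.98 (SE 0.512, edgeR adjusted p = 0.0246), and within experiments it was -1.14, -2.8 and -1.33. KRT14 was at 10.3, 12.1 and 10.5 CPM in the controls and at 6.97, 5.03 and 7.23 CPM in treated cells. Its groups did not overlap, but its log2 fold-change of -0.77 (SE 0.541, adjusted p = 0.436 in edgeR) was not called. KRT14 shares 24.2% of its 50-base windows with other genes, KRT16 among them, and its reads are uncertain to that extent.

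Among the keratins of simple epithelium, KRT19 was at 220, 443 and 257 CPM in the controls and at 71.8, 181 and 77.1 CPM in treated cells. Experiment 2 was the highest in both groups, and the groups did not overlap. KRT19 fell by 1.48 on the log2 scale (SE 0.373, edgeR adjusted p = 0.0218), with -1.61, -1.29 and -1.74 within experiments. KRT8 was at 526, 795 and 601 CPM in the controls and at 289, 472 and 308 CPM in treated cells, again without overlap. Its log2 fold-change was -0.85 (SE 0.25, edgeR adjusted p = 0.0462). KRT18, which pairs with KRT8, was at 393, 396 and 481 CPM in the controls and at 263, 404 and 260 CPM in treated cells. The treated library of experiment 2 lay within the range of the controls, and the log2 fold-change of -0.45 (SE 0.182, edgeR adjusted p = 0.143) was not called. The replicate block gave KRT18 an adjusted p of 0.0197 at -0.49, which is under the fold required.

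KRT7 and KRT80 differed between experiments. KRT7 was at 1790, 1150 and 1930 CPM in the controls and at 733, 1330 and 753 CPM after 30 µg/cm2. Treated cells of experiment 2 were thus above their own control, by 0.20 on the log2 scale, while experiments 1 and 3 were at -1.28 and -1.36. The pooled log2 fold-change of KRT7 was -0.79 (SE 0.225, edgeR adjusted p = 0.039). KRT80 was at 136, 55.8 and 140 CPM in the controls and at 71.8, 73.8 and 73.9 CPM in treated cells. It was higher than its control in experiment 2 (log2 difference 0.40), and the pooled log2 fold-change of -0.60 (SE 0.315, edgeR adjusted p = 0.275) was not called. KRT17 was at 189, 406 and 226 CPM in the controls and at 189, 250 and 204 CPM in treated cells, and its log2 fold-change of -0.35 (SE 0.438, edgeR adjusted p = 0.693) was not called.

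Counts per experiment were 9 of 9 keratins lower in experiment 1, 6 of 9 in experiment 2 and 9 of 9 in experiment 3. The share of all genes that were lower in each experiment was not counted. In experiment 1 this includes KRT17 at 188.8 against 189.4 CPM, a nearly equal level. With the 24-h libraries of experiment 2 left out, 7 keratins were called lower, where 9.95% of genes were called lower. KRT80 (log2 fold-change -0.94, edgeR adjusted p = 6.89e-07) and KRT18 (-0.76, edgeR adjusted p = 6.12e-05) were added, and KRT7 was at -1.34. In contrast, with either the treated library of experiment 1 or that of experiment 3 left out, KRT5 alone was called. Without the control of experiment 2 the 3 called keratins were KRT5, KRT7 and KRT80, and without that of experiment 3 they were KRT5, KRT15 and KRT19. KRT7, KRT8, KRT15 and KRT19 reached adjusted p-values of up to 0.177, 0.185, 0.121 and 0.109 when 1 library was left out. Leaving out both libraries of experiment 3 of the repeated protocol left KRT5, KRT15 and KRT19 called. For that fit and those with 1 library left out, the share of all genes called lower was not counted.

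**Figure D2:**
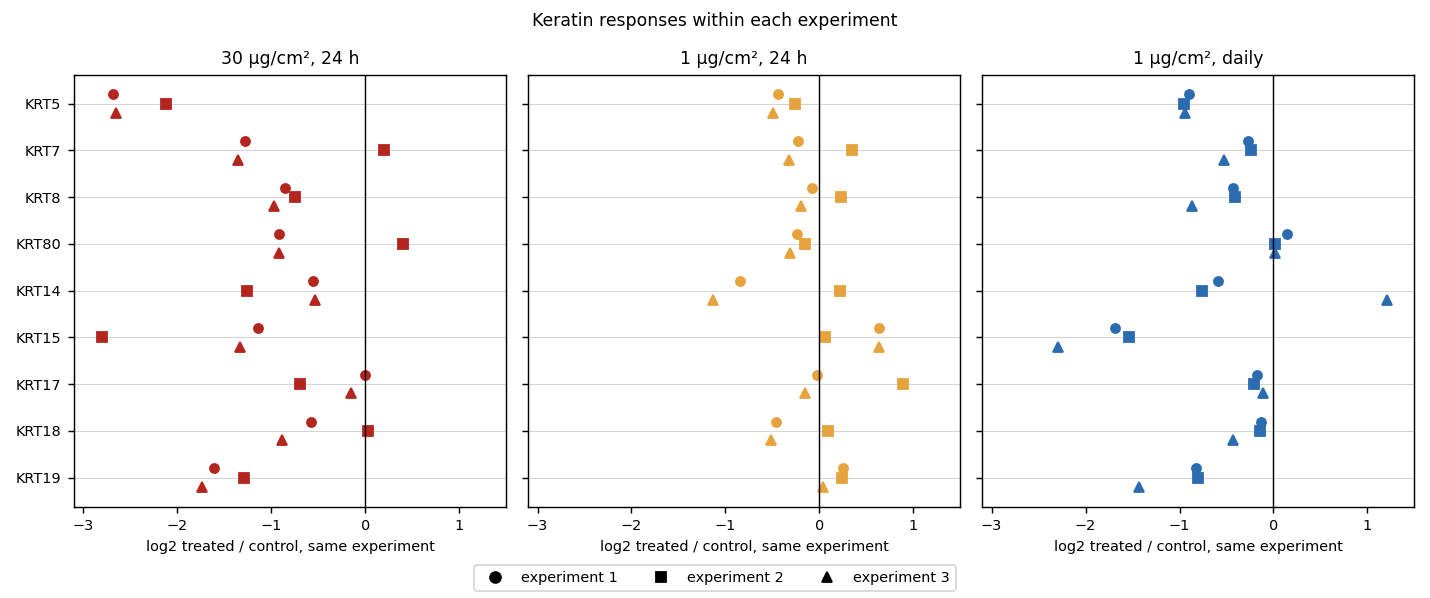
Log2 ratio of the treated to the control library of the same experiment (horizontal axes) for each keratin, by treatment. Shapes give the experiment, and values left of 0 are lower than control. KRT5 is left of 0 in all 9 ratios, while KRT7 and KRT80 of experiment 2 lie right of 0 at 30 µg/cm2 (0.20 and 0.40).

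The pool of keratin mRNA was smaller and differently composed after 30 µg/cm2. The 9 keratins summed to 1070 ± 59.2 CPM per kb in the controls and 560 ± 168 CPM per kb in treated cells. KRT5 made up 16.4% ± 0.28 of that sum in the controls and 5.71% ± 0.367 after exposure, and the ranges did not overlap. KRT18 made up 12.3% ± 0.874 and 17.3% ± 0.691. KRT19 went from 12.3% ± 4.77 to 8.02% ± 1.96, with ranges of 9.35% to 17.8% and 6.78% to 10.3% that overlapped. Within each experiment the KRT19 share was nevertheless lower in treated cells, at 6.78% against 9.35%, 10.3% against 17.8% and 7% against 9.8%. The ratio of type II to type I keratins was 1.39, 1.48 and 1.39 in the 3 treated libraries, against 2.4, 1.22 and 2.18 in the controls. It was thus within the range of the controls, but lower than the own control in experiments 1 and 3 and higher in experiment 2. These shares and ratios are descriptions that rest on the deposited exon lengths. Less RNA per cell cannot be told apart from fewer cells that express a gene.

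**Figure D3:**
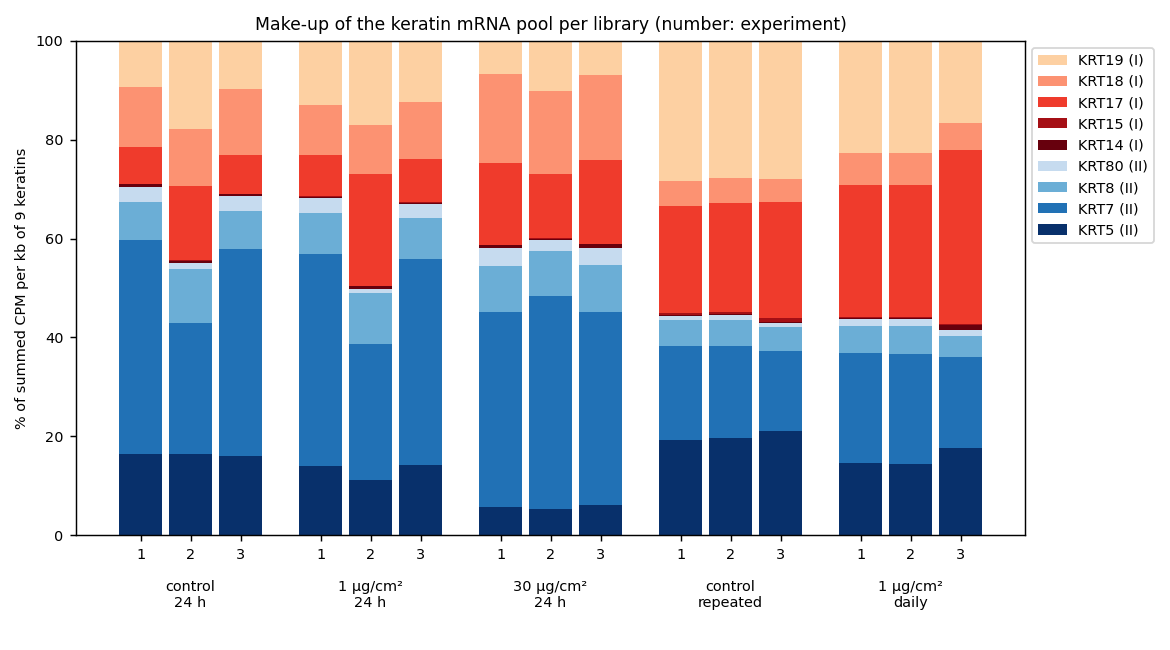
Share of each keratin in the summed CPM per kb of the 9 keratins (vertical axis, %), 1 bar per library. Blue marks type II and red to orange type I keratins. The KRT5 share is 5.36% to 6.09% at 30 µg/cm2 against 16% to 16.5% in the 24-h controls, and KRT19 holds 27.8% to 28.3% in the control of the repeated protocol.

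A single exposure to 1 µg/cm2 for 24 h gave no called keratin in edgeR, where 0.0625% of genes were called in either direction. Of the 9, 1 keratin had an unadjusted p under 0.05, and DESeq2 and the likelihood ratio test each called 0 of the 9. With the replicate block none was called either, where 0.42% of genes were. KRT5 was at 527, 629 and 553 CPM, below all 3 controls, which 2.13% of genes were in all 9 pairs. Its log2 fold-change was -0.39 (SE 0.173, edgeR adjusted p = 1), with -0.44, -0.26 and -0.49 within experiments. KRT15 (0.63, 0.06 and 0.63) and KRT19 (0.25, 0.24 and 0.04) were above their own control in each experiment. These log2 differences were smaller than the spread of the 3 control libraries, but that spread lies between experiments and came mainly from experiment 2. The controls were at 2.47, 8.43 and 2.41 CPM for KRT15 and at 220, 443 and 257 CPM for KRT19. KRT17 in experiment 2 was at 752 CPM, against 185 and 203 CPM in experiments 1 and 3. The number of keratins below their own control was 7, 2 and 7 of 9 in experiments 1, 2 and 3, and the share of all genes was not counted. With the replicate block and without experiment 2, KRT14 (log2 fold-change -0.98, adjusted p = 0.0103) and KRT15 (0.63, adjusted p = 0.0316) were called in edgeR from 2 experiments, where 3.29% of genes were called. Over all alternatives the adjusted p went up to 1 for both.

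The higher dose was also compared directly with the lower one. In all, 4 keratins were lower at 30 than at 1 µg/cm2, where 4.22% of genes were called lower. These were KRT5 (log2 fold-change -2.07, SE 0.18, edgeR adjusted p = 4.92e-05), KRT15 (-2.28, SE 0.512, adjusted p = 0.0121), KRT19 (-1.67, SE 0.375, adjusted p = 0.0124) and KRT8 (-0.87, SE 0.25, adjusted p = 0.0408). The replicate block added KRT7 (-0.70, adjusted p = 0.0329), where 8.58% of genes were called lower. Without the 24-h libraries of experiment 2, 6 keratins were lower, where 9.97% of genes were, and KRT7 (-1.07, edgeR adjusted p = 3.77e-07) and KRT80 (-0.67, adjusted p = 2.59e-05) were added. Leaving out the 30 µg/cm2 library of experiment 1 or 3 left KRT5 alone, in fits for which the share of all genes was not counted. Both comparisons share the 30 µg/cm2 libraries, so they are not independent.

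Daily exposure to 1 µg/cm2 was followed by a fall of KRT5. Its level was 866, 812 and 1070 CPM in the controls of the repeated protocol and 465, 420 and 560 CPM in exposed cells, without overlap. Means were 917 ± 137 and 482 ± 71.5 CPM (SD, n = 3). Exposed cells were 1.91-fold lower, with a log2 fold-change of -0.93 (SE 0.175, edgeR adjusted p = 0.0477). It was the only keratin called, where 0.125% of genes were called lower. The 3 experiments gave nearly equal log2 differences of -0.90, -0.95 and -0.94. The call was lost when any 1 of the 6 libraries was left out (adjusted p from 0.125 to 0.31), while the log2 fold-change stayed between -1.05 and -0.80.

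When experiments were entered as a replicate block, 3 keratins were called lower after daily exposure, where 2.79% of genes were. These were KRT5 (-0.93, SE 0.11, edgeR adjusted p = 0.0015), KRT15 (-1.84, SE 0.2, adjusted p = 0.00123) and KRT19 (-1.02, SE 0.128, adjusted p = 0.00194). KRT15 was at 33.6, 30.0 and 60.5 CPM in the controls and at 10.4, 10.3 and 12.4 CPM in exposed cells. KRT19 was at 689, 625 and 779 CPM in the controls and at 390, 359 and 289 CPM in exposed cells. For both genes the groups were far apart and each experiment was lower, although without the block KRT15 (-1.91, adjusted p = 0.105) and KRT19 (-1.01, adjusted p = 0.285) were not called. The same 3 were called without the 24-h libraries of experiment 2, where 3.4% of genes were called lower. They were called again with the block and without experiment 3 of the repeated protocol, at an adjusted p of 0.0272 each, where 0.373% of genes were called lower. Without the block, leaving out those libraries gave no call (edgeR adjusted p = 0.658 for KRT5).

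The remaining keratins changed less after daily exposure. All 9 pairs of libraries were lower for 6 keratins, KRT5, KRT7, KRT8, KRT15, KRT18 and KRT19, a pattern that 21.6% of genes showed. KRT8 was at 370, 348 and 396 CPM in the controls and at 275, 262 and 217 CPM in exposed cells. Its log2 fold-change was -0.56, with an adjusted p of 0.391 in edgeR and of 0.00982 with the replicate block, under the fold required in both. KRT7 (-0.34, edgeR adjusted p = 0.589) and KRT18 (-0.23, edgeR adjusted p = 0.668) were closer to their controls. KRT80 was at 40.2, 39.8 and 36.0 CPM in the controls and at 44.2, 40.3 and 36.5 CPM in exposed cells. KRT17 was at 573, 536 and 711 CPM in the controls and at 504, 462 and 661 CPM in exposed cells, a log2 fold-change of -0.16 (SE 0.436, edgeR adjusted p = 0.92).

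KRT14 depended on 1 library. It was at 5.74, 5.37 and 7.53 CPM in the controls of the repeated protocol and at 3.82, 3.18 and 17.4 CPM in exposed cells. The library of experiment 3 was far above the others, and the log2 fold-change was 0.39 (SE 0.538, edgeR adjusted p = 0.828) with it and -0.83 without it. In the same library KRT16, with which KRT14 shares sequence, was at 255 CPM against 46.5 and 45.6 CPM in the other exposed libraries. KRT6B was at 24 CPM against 2.88 and 2.89 CPM, and KRT4 at 8.11 CPM against 0.94 and 0.838 CPM. S100A8, S100A9 and SPRR3, genes of squamous differentiation, were at 276, 360 and 23.9 CPM there, against 30, 62.2 and 2.37 CPM in experiment 1. The part of these differences in the keratin values was not tested.

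**Figure D4:**
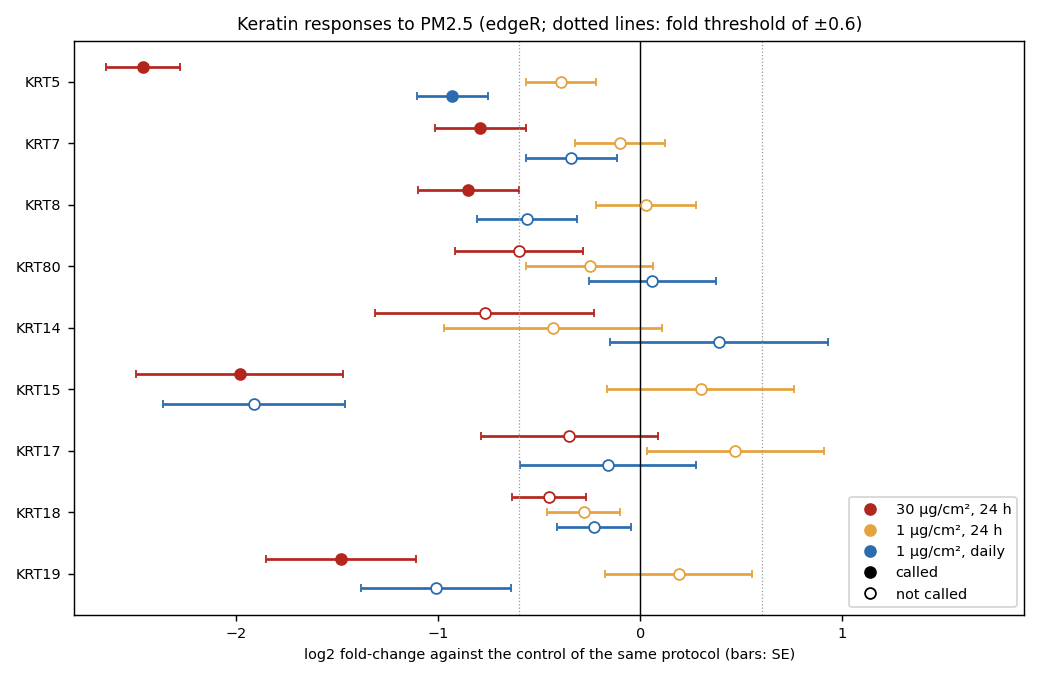
Log2 fold-change of each keratin (horizontal axis) against the control of the same protocol, with bars of 1 SE from edgeR. Filled points were called, open points were not, and dotted lines mark the fold required of 0.6. KRT5 is filled at 30 µg/cm2 (-2.46) and after daily exposure (-0.93), and no keratin is filled after a single exposure to 1 µg/cm2.

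The summed level of the 9 keratins was 1070 ± 115 CPM per kb in the control of the repeated protocol and 719 ± 35 CPM per kb after daily exposure. KRT19 held 28% ± 0.213 of the sum in the control and 20.6% ± 3.38 in exposed cells, while KRT17 held 22.4% ± 1.05 and 29.6% ± 4.85. Both differences were free of overlap between the groups. By deposited exon lengths the ratio of type II to type I keratins was 0.784 ± 0.0287 and 0.752 ± 0.0407. Without division by length type II was above type I in both groups. The summed levels were 1930 to 2300 against 1350 to 1730 CPM in the control, and 1340 to 1460 against 976 to 1110 CPM in exposed cells. Per deposited exon length KRT17 was highest in exposed cells, at 214 ± 41.2 CPM per kb, and KRT19 in the control, at 299 ± 33.1 CPM per kb. That order depends on the length used. In CPM without a length, KRT7 (615 ± 61.6 CPM) was above KRT17 (542 ± 105 CPM) in exposed cells. In the control KRT5 (917 ± 137 CPM) was above KRT19 (698 ± 77.2 CPM).

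The response to daily and to single exposure at 1 µg/cm2 was compared as a difference of the 2 log2 fold-changes. No gene was called in edgeR, that is 0 of 17599 or 0%, while 1245 genes had an unadjusted p under 0.05, DESeq2 called 75 and the likelihood ratio test 13. Among the keratins, 3 had an unadjusted p under 0.05, KRT5, KRT15 and KRT19. With the replicate block KRT15 (-2.23, SE 0.306) and KRT19 (-1.19, SE 0.179) were called lower, both at an edgeR adjusted p of 0.0386, where 0.682% of genes were called lower. Their adjusted p ranged up to 1 over the alternatives. Without experiment 3 of the repeated protocol the block gave both an adjusted p of 0.158. Without the 24-h libraries of experiment 2 it called KRT14, KRT15 and KRT19, where 12.3% of genes were called in either direction.

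Control cells of the repeated protocol had another set of keratins than control cells at 24 h. KRT15 was 9.45-fold higher (log2 fold-change 3.24, SE 0.48, edgeR adjusted p = 3e-04) and KRT19 2.28-fold higher (1.19, SE 0.37, adjusted p = 0.0278), where 11.1% of genes were called higher. The keratins KRT80 (-1.52, SE 0.321, edgeR adjusted p = 0.00324), KRT18 (-1.35, SE 0.185, adjusted p = 0.000173), KRT7 (-1.05, SE 0.226, adjusted p = 0.00352) and KRT8 (-0.79, SE 0.25, adjusted p = 0.0297) were lower, where 10.8% of genes were called lower. KRT17 was at 573, 536 and 711 CPM against 189, 406 and 226 CPM, without overlap, and its log2 fold-change of 1.15 (SE 0.442, edgeR adjusted p = 0.0671) was not called. KRT5 (0.29, edgeR adjusted p = 0.224) and KRT14 (-0.81, edgeR adjusted p = 0.281) were not called. The calls of KRT8 and KRT19 were each lost in 5 of the 6 settings that left out 1 library. Plating density, daily change of medium, time in culture, washing and the experiments themselves cannot be told apart in this comparison, and no block could be used.

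The order of the keratins per deposited exon length, which depends on those lengths, changed accordingly. KRT19 (299 ± 33.1 CPM per kb), KRT17 (239 ± 36.4 CPM per kb) and KRT5 (214 ± 32 CPM per kb) led in the control of the repeated protocol, with ranges that overlapped from one to the next. KRT7 (191 ± 10.4 CPM per kb) overlapped KRT5 and was followed at a distance by KRT8 (53.9 ± 3.49 CPM per kb) and KRT18 (51.6 ± 2.88 CPM per kb). The ratio of type II to type I keratins by the same lengths was 0.799, 0.802 and 0.751, below every 24-h control library.

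Of the other keratins, 46 were in the table and 14 were tested. At 30 µg/cm2 1 was called, where 3.82% of genes were called higher. This was KRT23, which rose from 0.813 ± 0.504 to 2.49 ± 0.603 CPM (log2 fold-change 1.60, SE 0.393, edgeR adjusted p = 0.0188). That call was lost in 2 of the 6 fits that left out 1 library, and experiment 2 left out gave 3 higher and 3 lower, where 9.16% of genes were called higher and 9.95% lower. Between 30 and 1 µg/cm2, KRT23 and KRT34 were higher and KRT13 was lower (3.62% of genes were called higher and 4.22% lower), the latter 2 at levels under 1 CPM in every 24-h library. No other keratin was called after either exposure to 1 µg/cm2. With the block, KRT10 (0.83, edgeR adjusted p = 0.0172), KRT6B (1.43, adjusted p = 0.0281) and KRT6C (1.49, adjusted p = 0.0186) were higher after daily exposure, where 1.6% of genes were. KRT10, a keratin of suprabasal cells, was at 68.2, 50.5 and 114 CPM against 46.7, 37.6 and 40.3 CPM. KRT6C was at 2.46, 1.94 and 16.7 CPM against 1.22, 1.41 and 2.82 CPM, and KRT6B at 2.88, 2.89 and 24 CPM against 2.13, 1.77 and 3.64 CPM. Experiment 3 was far above the others for both genes. With the block and without experiment 3 none of the 3 was called, where 0.156% of genes were called higher, at log2 fold-changes of 0.48 for KRT10, 0.57 for KRT6B and 0.72 for KRT6C (edgeR adjusted p = 0.158, 0.326 and 0.265). In the control of the repeated protocol 6 were called higher than at 24 h, KRT4, KRT6A, KRT13, KRT16, KRT23 and KRT83, where 11.1% of genes were called higher. Of these KRT4, KRT13 and KRT83 were at 1.22 CPM or less in every control library, and with 1 library left out 3 to 6 were called. KRT16, a keratin of activated and squamous epithelium, was at 39.9, 38.2 and 80.7 CPM against 1.23, 2.87 and 1.81 CPM. KRT6A, its partner, was at 467 ± 79 CPM against 254 ± 62.8 CPM.

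Genes that anchor keratin filaments in desmosomes and hemidesmosomes were described as a list of 16, all tested. At 30 µg/cm2 7 were called lower and none higher, where 4.24% of genes were called lower. The number was also 7 without experiment 2, where 9.95% of genes were lower, and 6 to 8 with 1 library left out. With the block it was 8, where 7.87% of genes were called lower. PPL (periplakin, which links keratins to the desmosomal plaque) fell by 1.88 on the log2 scale (SE 0.163, edgeR adjusted p = 1.91e-05). PKP2 (-1.40, edgeR adjusted p = 0.00398), DSG3 (-0.93, adjusted p = 0.0154) and PKP1 (-0.92, adjusted p = 0.00612), a pair of plakophilins and a desmosomal cadherin, were lower as well. The median of the 16 was -0.56, against 0.03 over all genes. After daily exposure none was called, with a median of -0.51, and the block called 4 lower, where 2.79% of genes were. These were DSP (-0.98, edgeR adjusted p = 0.00248), DST (-1.0, adjusted p = 0.00303), DSC3 (-0.70, adjusted p = 0.00561) and DSG3 (-0.65, adjusted p = 0.0218). In the control of the repeated protocol 8 were higher and 2 lower than at 24 h, where 11.1% of genes were called higher and 10.8% lower. DSG3 (3.19, edgeR adjusted p = 2.74e-06) and PKP1 (2.51, adjusted p = 4.07e-06) were among the higher ones.

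Transcription regulators of basal cells and keratins numbered 22, of which 21 were tested. KLF4 (log2 fold-change 1.21, edgeR adjusted p = 0.00306) and OVOL1 (1.66, adjusted p = 0.0116) rose and OVOL2 (-0.88, adjusted p = 0.012) and KLF5 (-0.65, adjusted p = 0.00546) fell at 30 µg/cm2, where 3.82% of genes were called higher and 4.24% lower. Without experiment 2 the counts were 5 higher and 3 lower, where 9.16% and 9.95% of genes were, and OVOL1, OVOL2 and KLF5 each lost the call with 1 of the 6 libraries left out. With the block 2 were higher and 5 lower, where 7.87% of genes were called lower and the share called higher was not counted. TP63, the master regulator of the basal state and an activator of KRT5 and KRT14, was at 56.6, 55.6 and 65.4 CPM in the control of the repeated protocol. After daily exposure it was at 29, 31.1 and 29.5 CPM, a log2 fold-change of -0.99 (SE 0.186, edgeR adjusted p = 0.0477). In that fit no other regulator was called, where 0.125% of genes were called lower and 0.102% higher. With the block 4 regulators were lower and 1 higher, where 2.79% and 1.6% of genes were. Without 24-h experiment 2, 5 were lower and 1 higher, where 3.4% and 2.64% of genes were. The groups of TP63 did not overlap, but like that of KRT5 its call was lost when any 1 library was left out (adjusted p from 0.174 to 0.31). At 24 h and 30 µg/cm2 TP63 was at -0.62 (SE 0.188, edgeR adjusted p = 0.0514) and was called only with the block (adjusted p = 0.00168). Of the 8 markers of basal epithelium, 3 were lower at 30 µg/cm2, against 4.24% of all genes, namely KRT5, KRT15 and the hemidesmosome integrin ITGB4 (-0.74, edgeR adjusted p = 0.00266). NGFR, a surface receptor of basal cells, was higher, at 31.8, 21.4 and 33 CPM against 4.79, 4.61 and 5.99 CPM (log2 fold-change 2.48, SE 0.251, edgeR adjusted p = 4.72e-05), so basal markers did not all move one way. With the block 5 of these 8 markers were lower and 1 was higher, where 7.87% of genes were called lower and the share called higher was not counted. In all, 13 regulators were higher in the control of the repeated protocol than at 24 h and none was lower, where 11.1% of genes were called higher and 10.8% lower.

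No gene of the list of squamous differentiation, with 16 of 18 tested, was called at 30 µg/cm2 or after daily exposure. With the block 4 were lower at 30 µg/cm2, where 7.87% of genes were. Without 24-h experiment 2, 3 were lower at 30 µg/cm2, where 9.95% of genes were. In that fit 9 were higher and 3 lower after daily exposure, where 2.64% of genes were higher and 3.4% lower. With the block, 8 were higher and 2 lower after daily exposure, where 1.6% of genes were higher and 2.79% lower, with the high values of experiment 3 given above. A further comparison, of the controls, had 9 higher and 2 lower in the control of the repeated protocol, where 11.1% of genes were higher and 10.8% lower. Of the other intermediate filament genes, 8 of 11 were tested and 3 were lower at 30 µg/cm2 (2 to 3 with 1 library left out), where 4.24% of genes were lower. These were the nuclear lamins LMNB1 (-1.05, edgeR adjusted p = 0.000795), LMNA (-0.74, adjusted p = 0.0147) and LMNB2 (-0.67, adjusted p = 0.0063). VIM, the filament of mesenchymal cells, was lower in the control of the repeated protocol (-1.18, edgeR adjusted p = 0.00458).

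Across the 15 libraries the keratins fell into different patterns, which are given as correlations of log2 CPM over libraries that share conditions and experiments. KRT15 and KRT19 (r = 0.913), KRT7 and KRT18 (r = 0.891), KRT5 and KRT19 (r = 0.877) and KRT8 and KRT18 (r = 0.83) moved most alike, while KRT80 and KRT17 were opposed (r = -0.883). KRT5 and KRT14, partners in the basal filament, were at r = 0.222. The genes most like KRT5 were RAD21 (0.968), SDK1 (0.968), ARHGAP24 (0.966), PPL (0.958) and PDK4 (0.957). Those most like KRT8 were PDLIM1 (0.977), SDHA (0.977), PLOD1 (0.973), TCN2 (0.968) and LMNA (0.967).

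Some keratin reads may be shared with other genes. KRT8 and KRT18 overlap on opposite strands over 525 exon bases, which are 7.63% of KRT8 and 16.3% of KRT18 exon, and KRT7 overlaps the antisense gene KRT7-AS over 282 exon bases. Of all 50-base windows of the main transcript, 52.8% of KRT18, 39.2% of KRT8, 24.2% of KRT14, 18.3% of KRT17 and 11.7% of KRT7 also occur in other genes. For KRT5, KRT19, KRT15 and KRT80 the share was 4.52%, 1.79%, 1.02% and 0.418%. Counts on the annotated pseudogenes were 0.633% to 3.51% of the KRT8 counts, 0.211% to 1.48% of the KRT18 counts and at most 0.11% of the KRT17 counts. The strand and the treatment of shared reads in the counting were not given in the sources used here.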

How the data were processed

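The authors deposited 1 table of counts per gene for the 15 libraries, whole numbers without normalization, with the exon length of each gene beside them. Single-end reads of 50 bases were aligned with STAR to GRCh38 per the methods and counted with featureCounts, whose options were not given in the sources used here. The labels list hg19, but 98.6% of 57437 genes lay within 1000 bases of their GRCh38 position.

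The analysis used R 4.3.3 and edgeR 4.0.16. The 17599 genes that passed filterByExpr were scaled by TMM and fitted by the quasi-likelihood test with 1 mean per condition over all 15 libraries. SEs were taken from the log2 fold-change and its F statistic. Levels per kb divide CPM by the deposited exon length, which joins all annotated exons of a gene. It exceeds the main transcript unevenly, as for KRT15 (7069 against 1712 bases), KRT8 (6881 against 1784) and KRT80 (4350 against 3873). The order per kb, the shares and the ratio of types rest on these lengths, and none was computed by transcript length. The series record gives the last sample number as the experimental batch, and deviations from group means correlated between libraries of the same number (24 h mean r 0.529, lowest 0.201, and repeated protocol mean r 0.154, lowest 0.121). Fits with the number as a replicate block are therefore printed where they change the call of a member keratin, and only in part for other genes. KRT34 at 30 µg/cm2 and KRT222 at 30 against 1 µg/cm2 were called only with the block and are not described further. DESeq2 1.42.0 and other settings were alternatives.

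All 9 keratins are named in each comparison, other keratins where called, and at most 4 called genes per list with the largest fold-change, and 5 genes for likeness. KRT6B, KRT6C and KRT10, S100A8, S100A9 and SPRR3, and the desmosome genes called with the block were chosen after their values were seen. The keratins and lists were chosen with earlier results of these data known.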

Additional observations from a re-analysis of the deposited data

Results flagged for a closer look

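For 3 keratins, flagged by their values, the sign after daily exposure was opposite to that after a single exposure at 1 µg/cm2 in every experiment. How many of all genes show this pattern was not counted, and edgeR without the block called no gene for the difference. Some of the single differences were small, with KRT15 at 0.06 in 24-h experiment 2 and KRT19 at 0.04 in 24-h experiment 3. KRT15 was above its own control in all 3 experiments at 24 h and below it in all 3 after daily exposure, and the difference of the log2 fold-changes was -2.21 (edgeR adjusted p = 0.444, and 0.0386 with the replicate block). KRT19 showed the same directions with a difference of -1.20 (edgeR adjusted p = 0.686, and 0.0386 with the block). KRT80 went the other way, with a difference of 0.31 that neither fit called (edgeR adjusted p = 0.935, and 0.605 with the block). After daily exposure KRT80 differed from its control by 0.14, 0.02 and 0.02 on the log2 scale in the 3 experiments.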

How the results depend on the processing

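Counts of called keratins moved with the libraries in the fit and with the replicate block. At 30 µg/cm2 5 were called, 1 with only the groups compared in the fit, 3 without experiment 3 of the repeated protocol, and 1 to 6 with 1 library left out. After daily exposure 1 was called, 2 with no filter on low counts, with DESeq2 and with the likelihood ratio test, and 3 with only the groups compared, without 24-h experiment 2, and with the block with or without either of those experiments. It was 0 without experiment 3 of the repeated protocol and 0 in each fit that left out 1 library. For 30 against 1 µg/cm2, 4 were called, 1 with only the groups compared, 6 without 24-h experiment 2 with or without the block, 3 without experiment 3 of the repeated protocol and 1 to 5 with 1 library left out. For the difference of the responses 0 were called, 1 with no filter, 2 with the replicate block or without 24-h experiment 2, 3 with both, and 0 to 1 with 1 library left out. At 1 µg/cm2 0 were called, and 2 with the block and without 24-h experiment 2. The counts of the controls stayed within 4 to 6 with 1 library left out. In that comparison KRT17 was also called with no filter, with DESeq2, with the likelihood ratio test, without 24-h experiment 2 and with only the groups compared. KRT14 was called in the last of these (-0.83, edgeR adjusted p = 0.00859). KRT8 and KRT19 were no longer called without experiment 3 of the repeated protocol. The last 2 settings with the block and the one without experiment 3 were chosen after seeing the data. The causes of these changes were not tested. In fits that left out libraries, the smaller number of samples cannot be told apart from the libraries left out.

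Directions changed only in keratins that were not called. At 1 µg/cm2 KRT8 (0.03) went to -0.01 with the replicate block, to -0.02 with the block without experiment 3 of the repeated protocol and to -0.13 without 24-h experiment 2, with and without the block, and KRT17 (0.47) to -0.09 and -0.08 without experiment 2, without and with the block. KRT14 after daily exposure (0.39) went to -0.67 without experiment 3, with and without the block, and its difference of the responses (0.82) to -0.24, or -0.16 with the block. Its 30 against 1 µg/cm2 value (-0.34) went to 0.42 without 24-h experiment 2, with and without the block. With 1 library left out, the ranges that crossed 0 at 1 µg/cm2 were -0.28 to 0.05 for KRT7, -0.33 to 0.23 for KRT8, -0.56 to 0.05 for KRT80, -0.21 to 1.16 for KRT15, -0.50 to 0.89 for KRT17 and -0.23 to 0.57 for KRT19. They were -0.58 to 0.04 for KRT17 at 30 µg/cm2, -0.63 to 0.28 for KRT14 and -1.18 to 0.13 for KRT17 at 30 against 1 µg/cm2, and -0.01 to 0.13 for KRT80 and -0.83 to 0.77 for KRT14 after daily exposure. For the difference of the responses they were -0.40 to 1.45 for KRT14, -1.05 to 0.34 for KRT17 and -0.08 to 0.22 for KRT18. Of all alternative values of the keratins 870 kept direction and side of the threshold, 48 passed it newly, 50 no longer passed it and 31 changed direction.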
